A study of Mus musculus with 11 samples.

Results

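Axon guidance ligands and receptors were examined across the stromal and endothelial cells of the mouse small intestine. Members were taken by name, as the gene symbols that begin like those of semaphorins, plexins, neuropilins, Slits, Robos, netrins, Unc5 receptors, ephrins and Eph receptors. The pattern matched 73 symbols over the deposited tables. Of these, 68 belong to the guidance families, as 35 ligands and 33 receptors, and the other 5 match by letters only (Unc50, Unc5cl, Plxna4os1, Plxna4os2 and Plxna4os3) and were left out of every count below. The bulk table holds all 68 members among 24969 gene names, and the single-cell matrices hold 67 of them.

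Bulk libraries were made from 4 sorted populations with 2 libraries each. Telocytes were the GFP-high cells and PDGFRAlo stromal cells the GFP-low cells of the transgenic PDGFRAH2BEGFP mouse, a reporter that marks cells with an active Pdgfra gene by a nuclear green fluorescent protein. Blood endothelium (CD31+LYVE1-) and lymphatic endothelium (CD31+LYVE1+) were sorted with antibodies from C57BL/6 mice, so strain and the contrast of stroma with endothelium cannot be told apart. All cells came from whole small intestine after the muscle had been stripped and the epithelium removed with EDTA. Droplet single-cell data were added from 1 library of sorted PDGFRA-EGFP cells, mixed at 2 GFP-low to 1 GFP-high, and 2 libraries labelled whole mesenchyme. The protocol text of the whole-mesenchyme libraries repeats that GFP sort, against their labels; they held endothelial-gated and immune-gated cells, as given below, and are described here by their labels. The labels give no age, and nothing in them ties replicates to separate mice, so the p-values reflect library-to-library spread alone, part of which may be technical.

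Guidance cues were named for steering growing axons, and the same proteins pattern vessels, lymphatics and epithelia. Secreted class 3 semaphorins bind neuropilins, which signal through plexins, while the other semaphorins bind plexins directly. Slits bind Robo receptors, netrins bind Unc5 receptors and the DCC family, and ephrins, which stay on the cell surface, bind Eph receptor tyrosine kinases on neighbouring cells. In the vasculature ephrin-B2 is a classic marker of arteries and its receptor EphB4 of veins, and in the intestinal epithelium EphB receptors and their ephrins hold crypt and villus cells in place.

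The sorted populations carried their own markers. The summed level of 10 telocyte markers was 9120.3 and 10303 CPM (counts scaled to a library total of 1000000, with TMM factors) in the telocyte libraries, against 754 and 867 CPM in the PDGFRAlo libraries. Bulk totals ranged from 8537569 to 55309701 counts per library. Markers of other cell types were also present: 9 blood endothelial markers summed to 67.6 and 48.6 CPM in telocytes, 2806 and 1029 CPM in the PDGFRAlo libraries, 28320.3 and 21075 CPM in blood endothelium and 2753 and 2737 CPM in lymphatic endothelium, with no marker at 0 in any library. Markers of plasma cells (5 genes) summed to 4747 and 4746 CPM in blood endothelium and 169975 and 65449 CPM in lymphatic endothelium. Those of macrophages (7 genes) summed to 2638 and 1902 CPM in blood endothelium and 7183 and 9338 CPM in lymphatic endothelium. The 6 lymphatic markers summed to 90.0 and 183 CPM in blood endothelium and 3958 and 7557 CPM in lymphatic endothelium. In both lymphatic libraries that was below the plasma cell and macrophage sums. In bulk data fewer cells of a type and less RNA per cell cannot be told apart. In single cells, classes were set by counts of detected markers ("gated"). The whole-mesenchyme libraries held 120 and 118 telocyte-gated cells, 1124 and 1048 fibroblast-gated cells, 165 and 160 blood-gated and 83 and 76 lymphatic-gated cells. These libraries shared 9 cell barcodes of 6886 and 6676. Over 12383 genes of the fibroblast-gated cells the median chi-square between them was 0.591, against 0.455 for counting noise alone. Nothing shows whether they came from separate animals.

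Guidance members were more often lower than higher in telocytes than in PDGFRAlo cells, and Efnb2 and Efnb1, which encode B-type ephrins, were among the few that were higher. Of the 60 members that passed the low-count filter, 22 were lower and 3 higher in telocytes, set against PDGFRAlo cells (edgeR quasi-likelihood test, Benjamini-Hochberg adjusted p under 0.05 over all 14893 genes tested). Among all genes tested, 12.1% were lower and 2.77% higher, so the members' share of lower calls, 36.7%, was above the background and the share of higher calls was 5.00%. The median log2 fold change was -1.60 over the members and -0.03 over all genes. Ligands and receptors were both affected, with 13 of 31 ligands and 9 of 29 receptors lower. Of the 22 lower members, 8 were tested in single cells and not called there, as named below. The blood endothelial marker sum, given above, was higher in the PDGFRAlo libraries than in telocytes, and its part in the lower calls was not tested. Of the 25 calls, 13 were kept in every fit that left out 1 library, the number of lower calls was 13 without telocyte library 2, and the number of higher calls was 1 without telocyte library 2, PDGFRAlo library 2 or either lymphatic library.

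Between the endothelial sorts, guidance members leaned to the blood side in bulk. In single cells their shares, given below, were above the background in both directions. Plasma cell and macrophage marker sums, given above, were higher in the lymphatic than in the blood sorts, and their part in the bulk lean was not tested. Blood endothelium was higher than lymphatic endothelium for 21 members and lower for 4, against a background of 14.7% and 8.32% of all genes, and the members' median log2 fold change was 1.15 against 0.12 for all genes. Only 8 of these 25 calls were kept in every fit without 1 library, and the number of higher calls was 12 without blood endothelial library 2, 11 without lymphatic library 1 and 9 without lymphatic library 2. Against both endothelia, the mean of the PDGFRA populations was higher for 24 members and lower for 14. The background was 28.8% and 31.7% of all genes, so the lower share of the members, 23.3%, was below that of all genes. Of these 38 calls 35 were kept in every fit without 1 library.

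**Figure D1:**
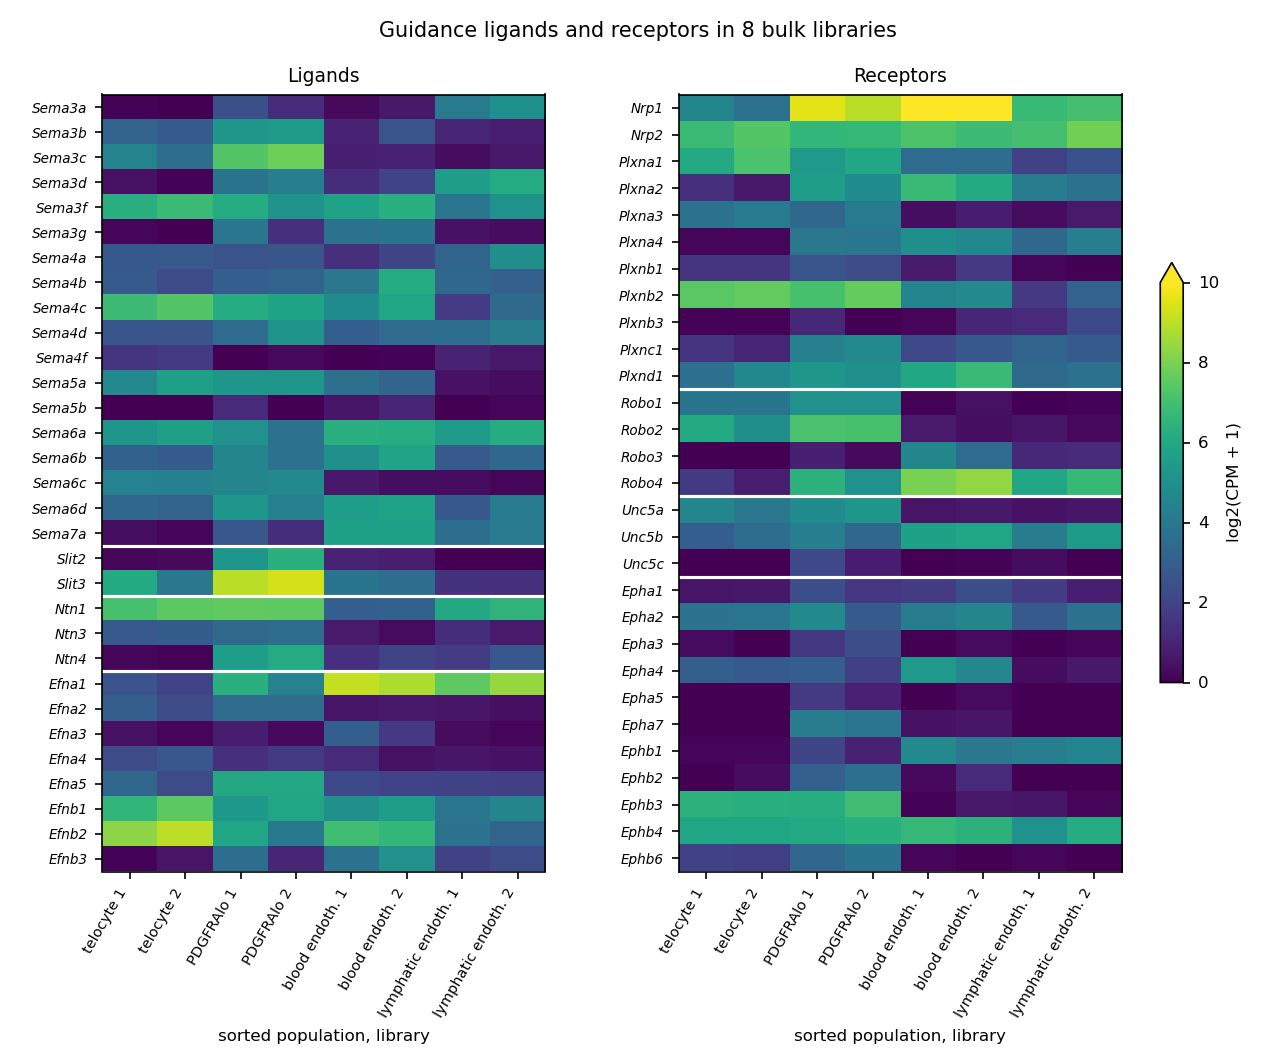
Level of the 60 tested members in the 8 bulk libraries, ligands on the left and receptors on the right, as log2(CPM + 1) on a colour scale; white lines part the families. The Slit2, Slit3 and Nrp1 rows are bright in the PDGFRAlo columns and dark or dimmer in the telocyte columns, and the Efnb2 row is brightest in the telocyte columns.

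**Figure D2:**
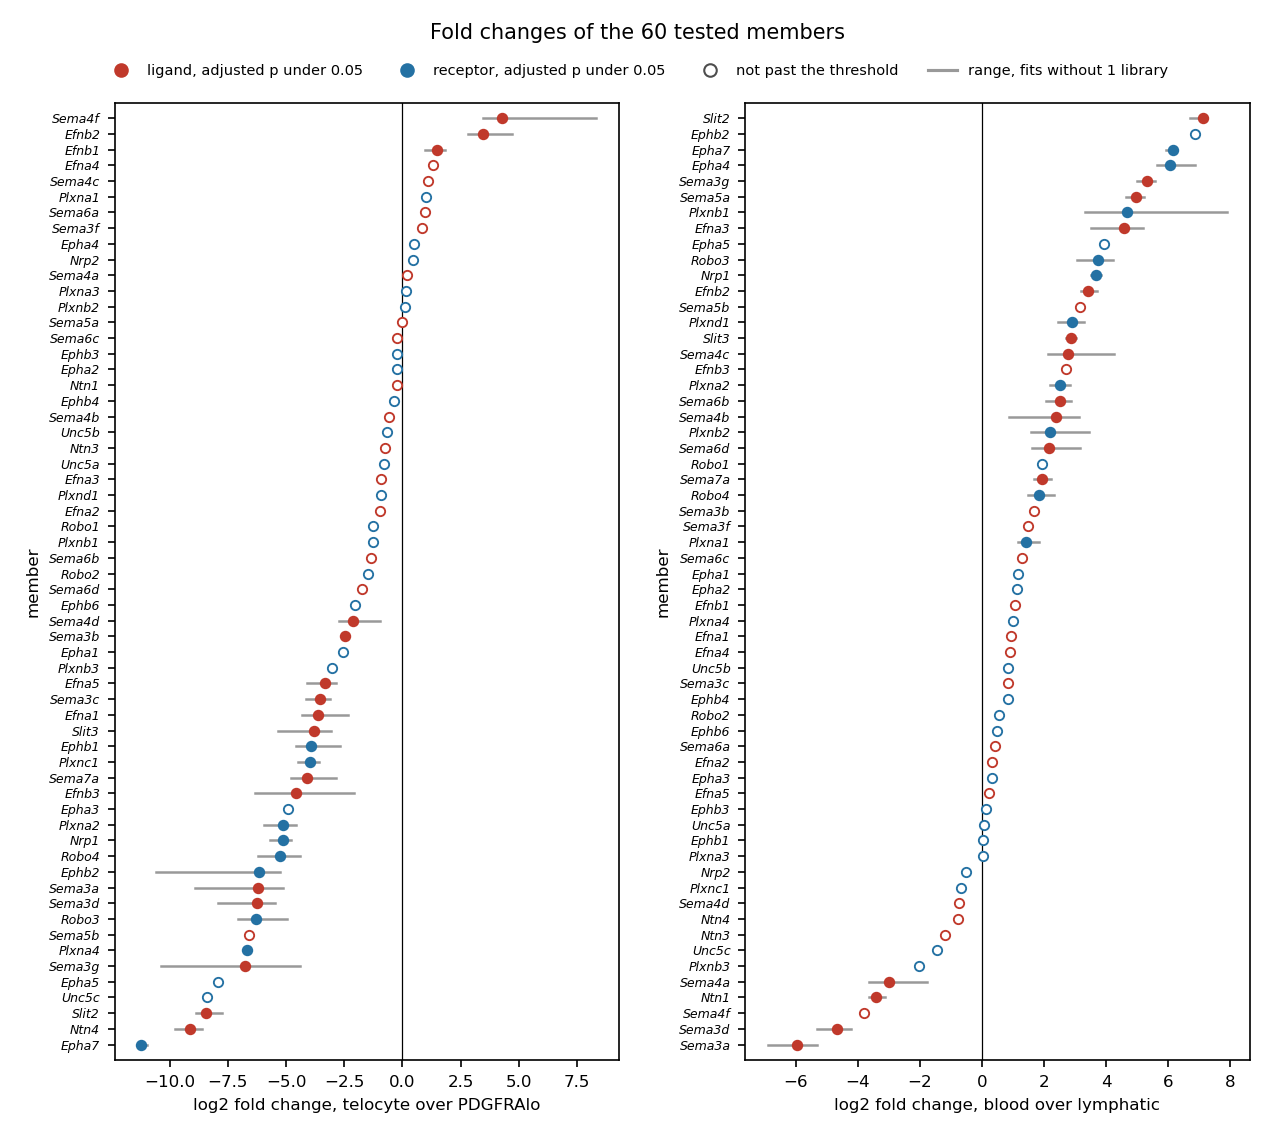
Log2 fold change of each tested member for telocyte over PDGFRAlo cells (left) and blood over lymphatic endothelium (right); filled points passed the threshold, and grey lines give the range of the called fold changes over fits that left out 1 library. On the left 22 filled points lie below 0 and 3 above, and on the right 21 lie above 0 and 4 below.

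The proximal promoters of 5 members whose levels set the populations apart are shown here: Efnb2, higher in telocytes; Slit2 and Slit3, both lower in telocytes; Sema3d, higher in lymphatic endothelium; and Nrp1, higher in blood endothelium. Each is the 250 bases before the start of the gene as RefSeq places it on GRCm38.p6, read 5′ to 3′ on the gene's strand. GENCODE M21 places some starts elsewhere. Its starts of Nrp1 (128358604) and Slit3 (35121224) put all of the Nrp1 window and most of the Slit3 window inside the gene. Its Slit2 start (47983138) lies within the Slit2 window, and its Sema3d start (12383385) lies beyond the end of the Sema3d window. Capitals mark matches on either strand to TGTTTA (forkhead core), CAGGAA (ETS core), AACAAT (SOX core), GGGCGG (GC box) or CACCTG (an E-box).
Efnb2, chr8:8661243-8661492, minus strand: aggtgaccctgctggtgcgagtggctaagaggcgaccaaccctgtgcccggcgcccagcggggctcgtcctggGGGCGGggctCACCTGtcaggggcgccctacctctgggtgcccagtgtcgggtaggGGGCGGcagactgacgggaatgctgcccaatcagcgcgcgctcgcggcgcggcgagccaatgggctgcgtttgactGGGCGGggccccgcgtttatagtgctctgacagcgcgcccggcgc
Slit2, chr5:47982905-47983154, plus strand: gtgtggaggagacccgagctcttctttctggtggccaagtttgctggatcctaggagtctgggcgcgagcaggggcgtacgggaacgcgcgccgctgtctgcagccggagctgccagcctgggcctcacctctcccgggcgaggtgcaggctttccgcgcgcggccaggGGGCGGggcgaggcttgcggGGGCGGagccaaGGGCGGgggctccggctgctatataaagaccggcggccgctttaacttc
Slit3, chr11:35121206-35121455, plus strand: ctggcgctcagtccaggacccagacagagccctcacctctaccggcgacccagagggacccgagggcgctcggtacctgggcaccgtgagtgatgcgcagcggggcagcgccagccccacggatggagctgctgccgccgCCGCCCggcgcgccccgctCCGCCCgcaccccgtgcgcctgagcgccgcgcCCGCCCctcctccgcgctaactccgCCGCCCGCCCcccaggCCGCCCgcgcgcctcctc
Sema3d, chr5:12382916-12383165, plus strand: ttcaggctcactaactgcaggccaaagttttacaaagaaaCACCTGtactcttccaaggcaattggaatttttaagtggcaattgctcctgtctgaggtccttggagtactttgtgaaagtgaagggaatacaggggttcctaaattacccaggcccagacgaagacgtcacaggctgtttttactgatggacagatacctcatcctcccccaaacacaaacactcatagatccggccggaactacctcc
Nrp1, chr8:128358823-128359072, plus strand: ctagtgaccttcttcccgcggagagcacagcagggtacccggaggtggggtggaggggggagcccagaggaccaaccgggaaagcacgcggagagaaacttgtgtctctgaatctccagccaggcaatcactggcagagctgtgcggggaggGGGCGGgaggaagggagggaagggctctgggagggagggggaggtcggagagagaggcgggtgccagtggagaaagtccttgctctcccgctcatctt
The Slit2 and Slit3 windows hold 3 and 6 GC boxes and are 69.6% and 78.8% G or C, and the Efnb2 window, at 72.0%, holds GC boxes and 1 E-box. The Sema3d window differs, with 46.8% G or C, a single E-box and no GC box. RefSeq promoters were found for 59 of the 68 members (75 windows). The GC box was in 70.7% of these, against 32.7% of all 32851 windows. The forkhead core was in 2 of 75, against 3952 of 32851 of all windows, and none of the 5 windows printed here holds it. These matches describe the letters and say nothing of which factors bind.

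Slits, the secreted ligands of Robo receptors, were PDGFRAlo genes. Slit2 had 0.143 and 0.182 CPM in telocytes, against 37.3 and 79.8 CPM in PDGFRAlo cells, 0.993 and 0.796 CPM in blood endothelium and no count in lymphatic endothelium. Slit3 had 67.6 and 14.5 CPM in telocytes, against 497 and 653 CPM in PDGFRAlo cells, 13.8 and 11.2 CPM in blood endothelium and 1.76 and 1.68 CPM in lymphatic endothelium. Each was above every other library in both PDGFRAlo libraries, and each passed against all other 3 populations with a log2 fold over 1, in the full fit and in all 8 fits that left out 1 library. Such genes are called specific to a population here: 9 members were specific to PDGFRAlo cells, against 2.72% of all genes tested. Against PDGFRAlo cells, Slit2 was lower in telocytes by a log2 fold change of -8.43 (SE 0.66, adjusted p = 0.000283) and Slit3 by -3.81 (SE 0.65, adjusted p = 0.00410). Without PDGFRAlo library 2 the Slit2 value was -7.77, and the Slit3 value was -5.33 without telocyte library 1 and -3.09 without telocyte library 2. Slit1 stayed under the low-count filter.

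The single-cell data placed the Slits in the same stromal cells. In whole mesenchyme Slit3 had 31.2 and 35.2 CPM in telocyte-gated cells, against 278 and 274 CPM in fibroblast-gated cells (log2 fold change -3.05, SE 0.15, adjusted p = 5.09e-15). Slit2 had 2.76 and 1.68 CPM in telocyte-gated cells, against 42.4 and 34.9 CPM in fibroblast-gated cells (log2 fold change -4.11, SE 0.42, adjusted p = 8.00e-09). Smooth muscle-gated cells had 41.0 and 36.1 CPM of Slit3, near the telocyte-gated cells. Barcodes without a cell (100 UMIs or fewer) carried 36.0 and 38.1 CPM of Slit3, so free RNA at this level was present, while plasma cell-gated cells had 0.266 and 1.35 CPM. In the sorted library, which has no replicate, Slit3 was at 10.4 CPM in telocyte-gated cells (95% Poisson interval 7.83 to 13.5, 55 UMIs) and 128 CPM in fibroblast-gated cells (122 to 134, 1622 UMIs); these intervals cover counting error only.

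Among the Robo receptors, Robo1 and Robo2 were stromal and Robo3 and Robo4 endothelial in bulk. Robo2 had 68.2 and 30.6 CPM in telocytes and 139.8 and 136 CPM in PDGFRAlo cells, against 0.638 and 0.293 CPM in blood endothelium and 0.540 and 0.202 CPM in lymphatic endothelium. Every stromal library was above every endothelial one, and the log2 fold change of stroma over endothelium was 7.67 (SE 0.46, adjusted p = 4.38e-06) for Robo2 and 7.74 (SE 0.63, adjusted p = 1.60e-05) for Robo1. The Robo1 value was 8.66 without blood endothelial library 2 and 9.26 without lymphatic library 2. Telocytes and PDGFRAlo cells did not differ past the threshold for either in bulk (Robo1 -1.25, adjusted p = 0.214; Robo2 -1.48, adjusted p = 0.0610). In whole mesenchyme both were lower in telocyte-gated than in fibroblast-gated cells (Robo1 -1.01, adjusted p = 0.00431; Robo2 -0.81, adjusted p = 4.44e-06).

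Robo4, a Robo of endothelial cells that is known to keep vessels from leaking, had 2.28 and 0.787 CPM in telocytes, 84.0 and 32.3 CPM in PDGFRAlo cells, 256 and 328 CPM in blood endothelium and 58.5 and 103 CPM in lymphatic endothelium. In bulk its level was lower in telocytes, by a log2 fold change of -5.26 (SE 0.68, adjusted p = 0.00114; -6.21 without telocyte library 1, -4.67 without telocyte library 2 and -4.39 without PDGFRAlo library 1). In single cells it was at 0.919 and 0.839 CPM in telocyte-gated cells and 0.227 and 0.612 CPM in fibroblast-gated cells, against 219.7 and 179.7 CPM in blood-gated and 167 and 165 CPM in lymphatic-gated cells. The blood endothelial marker sum given above was likewise higher in the PDGFRAlo libraries than in telocytes, and higher in PDGFRAlo library 1 than in library 2; its part in the bulk result was not tested. Blood over lymphatic endothelium, Robo4 passed in bulk (1.85, SE 0.57, adjusted p = 0.0432), with adjusted p-values of 0.0687 and 0.123 without blood endothelial library 1 or 2 and 0.201 and 0.102 without lymphatic library 1 or 2. In single cells it did not pass (0.27, SE 0.17, adjusted p = 0.302). Robo3 had 23.3 and 10.4 CPM in blood endothelium, against 1.22 and 1.28 CPM in lymphatic endothelium (log2 fold change 3.75, SE 0.81, adjusted p = 0.0140). That call was lost without blood endothelial library 1 (3.06, adjusted p = 0.0688) and without lymphatic library 1 or 2 (adjusted p = 0.0805 and 0.100). Robo3 was too low to test in whole mesenchyme: blood-gated cells held no UMI of it in either library, lymphatic-gated cells 1 and 0 and dendritic cell-gated cells 1 and 5, so its endothelial level was seen in bulk alone.

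Netrins, laminin-like secreted cues, split between the populations. Ntn1, the ligand of DCC and Unc5 receptors, had 134 and 179 CPM in telocytes, 189 and 182 CPM in PDGFRAlo cells, 6.83 and 7.58 CPM in blood endothelium and 64.0 and 89.4 CPM in lymphatic endothelium. Telocytes and PDGFRAlo cells overlapped, and the blood libraries were the lowest of all 8. Blood endothelium was lower than lymphatic endothelium by a log2 fold change of -3.41 (SE 0.35, adjusted p = 0.00126), a call kept in every fit without 1 library. Stroma was above endothelium, by 2.86 (SE 0.24, adjusted p = 1.86e-05). In single cells blood-gated cells had 15.8 and 27.9 CPM of Ntn1, against 641 and 681 CPM in lymphatic-gated cells (-4.94, SE 0.15, adjusted p = 5.84e-20). Telocyte-gated cells had 128 and 138 CPM, against 244 and 251 CPM in fibroblast-gated cells (-0.90, SE 0.09, adjusted p = 7.10e-09), and smooth muscle-gated cells had 332 and 331 CPM.

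Ntn4, a netrin of basement membranes, was nearly missing from telocytes. It had 0.143 and 0.0605 CPM there (3 counts in all), against 46.8 and 70.1 CPM in PDGFRAlo cells, 1.58 and 3.14 CPM in blood endothelium and 2.30 and 5.58 CPM in lymphatic endothelium. The PDGFRAlo libraries were above all others, and the ratio of PDGFRAlo cells to telocytes was 616 with a 95% counting interval of 211 to 2989. The fitted log2 fold change was -9.12 (SE 0.79, adjusted p = 0.000278; -9.79 without telocyte library 1). In whole mesenchyme it was at 1.84 and 0.839 CPM in telocyte-gated cells, against 18.7 and 20.6 CPM in fibroblast-gated cells (-3.86, SE 0.58, adjusted p = 6.51e-06). Both pericyte-gated cells, at 107 and 94.5 CPM from 30 and 46 cells, and smooth muscle-gated cells, at 49.8 and 49.2 CPM, had more. The sorted library held no Ntn4 UMI in telocyte-gated cells, against 9.55 CPM (95% Poisson interval 7.92 to 11.4) in fibroblast-gated cells. Of the Unc5 receptors, which take netrins, Unc5a was stromal (22.3 and 15.1 CPM in telocytes and 27.7 and 37.8 CPM in PDGFRAlo cells, against 0.405 to 0.587 CPM in the 4 endothelial libraries; log2 fold change 5.62, SE 0.35, adjusted p = 4.75e-06). Unc5b was higher in endothelium, with a log2 fold change of stroma over endothelium of -1.89 (SE 0.35, adjusted p = 0.00144). Within the endothelium Unc5b did not pass in bulk (0.84, adjusted p = 0.233), and in single cells it had 38.9 and 43.4 CPM in blood-gated cells, against 234 and 226 CPM in lymphatic-gated cells (-2.48, SE 0.20, adjusted p = 8.97e-11).

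**Figure D3:**
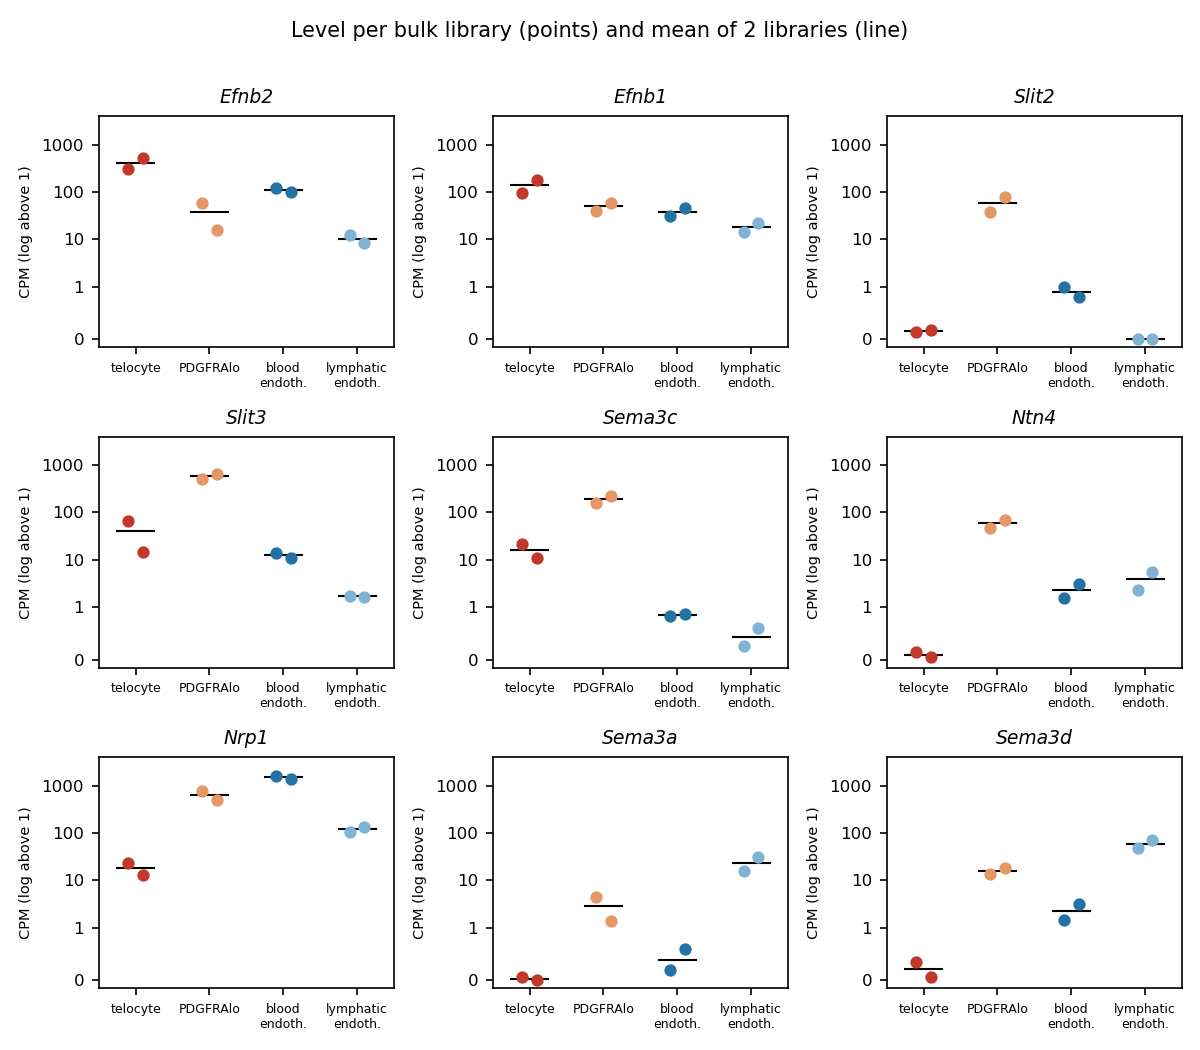
CPM of 9 members in each bulk library (points) with the mean of the 2 libraries of a population (line), on an axis that is linear below 1 CPM and logarithmic above. The telocyte points are the highest for Efnb2 and Efnb1 and lie below both PDGFRAlo points for the other 7 members.

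Semaphorins were the largest family, with 18 of 20 members tested, of which 7 (38.9%) were lower and 1 (5.56%) higher in telocytes than in PDGFRAlo cells, against 12.1% and 2.77% of all genes. Sema3c, a secreted class 3 semaphorin, had 21.8 and 10.7 CPM in telocytes, against 161 and 218 CPM in PDGFRAlo cells and 0.270 to 0.880 CPM in the endothelial libraries. It was specific to PDGFRAlo cells in all 8 fits without 1 library, and lower in telocytes by a log2 fold change of -3.54 (SE 0.43, adjusted p = 0.000887; -4.16 without telocyte library 1). In whole mesenchyme it had 21.1 and 27.7 CPM in telocyte-gated cells, against 113 and 117 CPM in fibroblast-gated cells (-2.23, SE 0.17, adjusted p = 1.41e-11), with 100.1 and 112 CPM in smooth muscle-gated cells. Sema3b, another class 3 member, had 8.13 and 6.54 CPM in telocytes, against 37.9 and 42.2 CPM in PDGFRAlo cells. The groups did not overlap, but its call (-2.45, SE 0.64, adjusted p = 0.0308) was lost in 6 of 8 fits: without telocyte library 1 or 2 (adjusted p = 0.117 and 0.188), PDGFRAlo library 1 or 2 (0.0848 and 0.105) or lymphatic library 1 or 2 (0.0558 and 0.0573).

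Sema3a, which repels axons through neuropilin 1, and Sema3d, also of class 3, were higher in lymphatic endothelium. Sema3a had 0.189 and 0.587 CPM in blood endothelium, against 15.8 and 31.2 CPM in lymphatic endothelium, and Sema3d had 1.47 and 3.14 CPM against 47.0 and 70.9 CPM. In both cases the lymphatic libraries were the highest of all 8. Blood over lymphatic, the log2 fold change was -5.97 for Sema3a (SE 0.91, adjusted p = 0.00319; -5.31 and -6.90 without blood endothelial library 1 or 2, and -5.36 without lymphatic library 2) and -4.69 for Sema3d (SE 0.58, adjusted p = 0.00175; -5.31 without blood endothelial library 2). Each was specific to lymphatic endothelium in 6 of 8 fits without 1 library. The single cells placed them in the same class: Sema3a had no UMI in blood-gated cells, against 100.4 and 99.9 CPM in lymphatic-gated cells, which is at least 68.3-fold lower in the blood-gated cells (3 UMIs put over that class). Sema3d had 1.85 and 2.07 CPM in blood-gated cells, against 201 and 261 CPM in lymphatic-gated cells (-6.85, SE 0.40, adjusted p = 7.39e-13). In the stroma Sema3d was also lower in telocytes (0.356 and 0.0605 CPM) than in PDGFRAlo cells (13.5 and 18.3 CPM), by -6.27 (SE 0.71, adjusted p = 0.000657; -7.92 without telocyte library 1 and -5.46 without telocyte library 2).

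Other semaphorins were higher in blood than in lymphatic endothelium in bulk. Sema3g, a class 3 member of arterial endothelium, had 12.6 and 13.7 CPM in blood endothelium, against 0.405 and 0.269 CPM in lymphatic endothelium (log2 fold change 5.32, SE 1.17, adjusted p = 0.0125; adjusted p = 0.0699 and 0.111 without lymphatic library 1 or 2). In single cells it had 228 and 272 CPM in blood-gated cells and no UMI in lymphatic-gated cells, at least 89.4-fold higher in the blood-gated cells; DESeq2 gave an adjusted p of 0.391 for it, against 2.96e-11 in edgeR and at most 6.86e-11 in 6 other settings. Fibroblast-gated cells had 0.454 and 0.857 CPM of Sema3g, and PDGFRAlo bulk libraries 14.3 and 1.57 CPM. Specific to blood endothelium were 9 members (Plxnd1, Epha4, Sema4b, Sema7a, Sema6b, Efna3, Nrp1, Robo3 and Robo4), against 6.08% of all genes, and to lymphatic endothelium 3 (Sema3a, Sema3d and Sema4a), against 3.61%. The blood count was 5 without telocyte library 2, 4 without blood endothelial library 1 or 2, 3 without PDGFRAlo library 2 or lymphatic library 1 and 2 without lymphatic library 2. The lymphatic count was 1 without PDGFRAlo library 1 or 2 and 0 without lymphatic library 2. Sema5a and Sema6b, transmembrane semaphorins, kept their bulk calls in every fit without 1 library, with log2 fold changes of 4.97 (SE 0.55, adjusted p = 0.00127) and 2.51 (SE 0.47, adjusted p = 0.00669). Sema5a had 11.9 and 8.55 CPM in blood endothelium, against 0.405 and 0.269 CPM in lymphatic endothelium, yet its highest level was in the stroma: 25.4 and 49.8 CPM in telocytes and 37.9 and 38.4 CPM in PDGFRAlo cells. In single cells smooth muscle-gated cells led, at 177 and 185 CPM.

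Sema4a, called lower in blood endothelium in bulk (1.61 and 3.23 CPM, against 8.24 and 29.7 CPM in lymphatic endothelium; log2 fold change -2.99, SE 0.66, adjusted p = 0.0127), was a case where the assays parted. The bulk call was lost without blood endothelial library 1 (adjusted p = 0.0606) and without lymphatic library 2 (-1.76, adjusted p = 0.125), and the value was -3.63 without lymphatic library 1. In single cells lymphatic-gated cells held no Sema4a UMI, blood-gated cells had 2.78 and 4.13 CPM and macrophage-gated cells 11.0 and 10.9 CPM. The macrophage marker sum was higher in the lymphatic than in the blood endothelial bulk libraries, as given above, and its part in the result was not tested. Sema4d, a semaphorin of immune cells that binds plexin-B1, was highest in macrophage-gated cells, at 98.8 and 139.5 CPM, and stood at 33.0 CPM in the plasma cell-gated cells of both libraries. Its bulk call for telocytes against PDGFRAlo cells (-2.11, SE 0.59, adjusted p = 0.0397) rested on PDGFRAlo library 2: the libraries had 5.20 and 5.27 CPM in telocytes, against 10.2 and 35.1 CPM in PDGFRAlo cells, and without that library the value was -0.96 (adjusted p = 0.412). The call was also lost in 6 other fits without 1 library, with adjusted p-values of 0.176 and 0.195 without telocyte library 1 or 2, 0.0505 and 0.0507 without blood endothelial library 1 or 2 and 0.0623 and 0.0649 without lymphatic library 1 or 2, and the value was -2.72 without PDGFRAlo library 1. Fibroblast-gated cells had 1.36 and 2.08 CPM. Sema4d, Sema6a and Sema4f were chosen after their values were seen.

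Sema4b, a transmembrane semaphorin, had a mean of 5.10 ± 1.56 CPM (SD, n = 2) in telocytes, with 6.87 and 8.36 CPM in PDGFRAlo cells, 14.8 and 72.0 CPM in blood endothelium and 9.05 and 7.46 CPM in lymphatic endothelium. The blood libraries were the highest of all 8 but far apart, and the call over lymphatic endothelium (log2 fold change 2.40, SE 0.66, adjusted p = 0.0298) was lost without blood endothelial library 2 (0.86, adjusted p = 0.239) and without lymphatic library 1 or 2 (adjusted p = 0.114 and 0.168), while the value was 3.14 without blood endothelial library 1. In single cells Sema4b was highest in plasma cell-gated cells, at 58.9 and 62.3 CPM, with 3.71 and 6.20 CPM in blood-gated cells. Sema6c, also transmembrane, was stromal, with 20.8 and 19.7 CPM in telocytes and 22.2 and 25.3 CPM in PDGFRAlo cells, against 0.591 and 0.293 CPM in blood endothelium and 0.270 and 0.134 CPM in lymphatic endothelium (stroma over endothelium 6.21, SE 0.40, adjusted p = 5.77e-06).

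Some transmembrane semaphorins that did not pass in bulk were higher in telocyte-gated than in fibroblast-gated cells, though an endothelial class had more of each. Sema6a had 79.9 and 87.3 CPM in telocyte-gated cells, against 14.1 and 12.7 CPM in fibroblast-gated cells (log2 fold change 2.64, SE 0.17, adjusted p = 6.38e-13). Sema4c had 118 and 133 CPM in telocyte-gated cells, against 42.5 and 42.3 CPM in fibroblast-gated cells (1.57, SE 0.12, adjusted p = 2.34e-11). Sema6a was highest in lymphatic-gated cells, at 424 and 411 CPM, and Sema4c in blood-gated cells, at 157 and 159 CPM. The bulk values pointed the same way without passing, at 0.98 (adjusted p = 0.220) for Sema6a and 1.11 (adjusted p = 0.287) for Sema4c. In the sorted library Sema6a was at 32.9 CPM (95% Poisson interval 28.2 to 38.2) in telocyte-gated cells and 5.37 CPM (4.17 to 6.80) in fibroblast-gated cells. Sema4f was the single semaphorin called higher in telocytes in bulk, but at 1.92 and 2.24 CPM, against 0 and 0.185 CPM in PDGFRAlo cells. That call was lost in all 8 fits without 1 library, with adjusted p-values from 0.0573 to 0.219.

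Neuropilins bind class 3 semaphorins and are co-receptors of VEGF. Nrp1 had 23.2 and 12.7 CPM in telocytes, 771 and 505 CPM in PDGFRAlo cells, 1626 and 1402 CPM in blood endothelium and 107 and 131 CPM in lymphatic endothelium. The 4 populations did not overlap. Telocytes were lower than PDGFRAlo cells by a log2 fold change of -5.15 (SE 0.49, adjusted p = 0.000350) and blood endothelium was higher than lymphatic endothelium by 3.67 (SE 0.46, adjusted p = 0.00177), and both calls were kept in every fit without 1 library. Per kilobase of exons Nrp1 was the highest of the plexins and neuropilins in PDGFRAlo cells, at 65.2 CPM per kb, and in blood endothelium, at 155 CPM per kb. In single cells Nrp1 had 22.0 and 36.1 CPM in telocyte-gated cells, against 315 and 322 CPM in fibroblast-gated cells (-3.44, SE 0.13, adjusted p = 7.36e-18). Blood-gated cells had 635 and 599 CPM and lymphatic-gated cells no UMI, at least 222-fold higher in the blood-gated cells, although the lymphatic bulk libraries were above 100 CPM. The blood endothelial marker sum in those bulk libraries was 2753 and 2737 CPM; its part in the bulk level was not tested.

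Nrp2, the neuropilin of veins and lymphatics, was present in all 8 bulk libraries, between 96.5 and 234 CPM, and passed in none of the 3 bulk comparisons (log2 fold changes 0.46, -0.50 and -0.42; adjusted p = 0.531, 0.353 and 0.193). In single cells it had 179.9 and 216 CPM in blood-gated cells, against 1139 and 1143 CPM in lymphatic-gated cells (-2.53, SE 0.11, adjusted p = 2.42e-17). Telocyte-gated cells, at 142 and 116 CPM, were above fibroblast-gated cells, at 93.5 and 95.7 CPM (0.44, SE 0.13, adjusted p = 0.00871). The difference between the assays was not tested.

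Plexins, the signalling receptors of semaphorins, split between stroma and endothelium, also within the A subfamily. Plxna2 and Plxna4 were endothelial, and telocytes held less of both than PDGFRAlo cells did: Plxna2 had 1.57 and 0.605 CPM in telocytes, against 48.2 and 27.8 CPM in PDGFRAlo cells (-5.14, SE 0.56, adjusted p = 0.000543; -5.97 without telocyte library 1). Plxna4 had 0.143 and 0.121 CPM in telocytes, against 14.7 and 14.0 CPM in PDGFRAlo cells (-6.70, SE 0.61, adjusted p = 0.000295). Both differences were also called in whole mesenchyme (Plxna2 -4.36, adjusted p = 3.35e-08; Plxna4 -3.18, adjusted p = 0.000321). Plxna1, Plxna3 and Plxnb2 were higher in stroma in bulk, with log2 fold changes of stroma over endothelium of 3.49 (SE 0.32, adjusted p = 2.94e-05), 4.76 (SE 0.49, adjusted p = 5.12e-05) and 3.98 (SE 0.38, adjusted p = 3.80e-05). The Plxnb2 value was 4.61 without lymphatic library 2. Plxnb2 had 171 and 190.2 CPM in telocytes and 135 and 196 CPM in PDGFRAlo cells, so the stromal populations overlapped. In single cells blood-gated cells came nearer to the stroma, with 70.5 and 62.0 CPM of Plxnb2. Fibroblast-gated cells had 102 and 93.7 CPM, telocyte-gated cells 99.2 and 102 CPM and lymphatic-gated cells 3.72 and 7.40 CPM. Plxnd1, a receptor for Sema3e that is best known in vessels, had 60.8 and 109 CPM in blood endothelium, against 9.86 and 12.6 CPM in lymphatic endothelium (2.91, SE 0.46, adjusted p = 0.00356), a call kept in every fit without 1 library. Plxnc1, the receptor of Sema7a, was specific to PDGFRAlo cells within the bulk sorts, at 1.92 and 1.03 CPM in telocytes, against 19.7 and 26.7 CPM in PDGFRAlo cells (-3.97, SE 0.53, adjusted p = 0.00123). Among single-cell classes it was highest in dendritic cell-gated cells (64.0 and 54.8 CPM), with 19.8 and 16.9 CPM in fibroblast-gated cells. It was specific in bulk in 5 of 8 fits without 1 library.

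Efnb2 and Efnb1, whose proteins signal into their own cell as well as to the neighbour, were higher in telocytes. Efnb2 had 302 and 513 CPM in telocytes, against 58.3 and 15.7 CPM in PDGFRAlo cells, 121 and 97.8 CPM in blood endothelium and 12.2 and 8.34 CPM in lymphatic endothelium. Both telocyte libraries were above the other 6, and the log2 fold change of telocytes over PDGFRAlo cells was 3.46 (SE 0.61, adjusted p = 0.00504). It was 4.72 without PDGFRAlo library 1 and 2.81 without PDGFRAlo library 2, and the call was kept in all 8 fits without 1 library. Efnb1 had 96.0 and 179 CPM in telocytes, against 39.1 and 59.7 CPM in PDGFRAlo cells, 31.0 and 45.8 CPM in blood endothelium and 14.2 and 22.3 CPM in lymphatic endothelium. Its call (1.47, SE 0.42, adjusted p = 0.0449) was lost in 5 fits: without telocyte library 2 (adjusted p = 0.391), PDGFRAlo library 1 or 2 (0.237 and 0.0821) or lymphatic library 1 or 2 (0.0574 and 0.0583). Both genes passed against each of the other 3 populations with a log2 fold over 1, as did 2.12% of all genes tested. That held for Efnb2 in 5 of 8 fits without 1 library and for Efnb1 in 3, and for neither without telocyte library 2.

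Single cells gave the same direction for both. Efnb2 had 194 and 188 CPM in telocyte-gated cells, against 8.29 and 8.32 CPM in fibroblast-gated cells (log2 fold change 4.52, SE 0.18, adjusted p = 5.36e-18), and Efnb1 had 80.8 and 94.8 CPM against 31.9 and 35.4 CPM (1.38, SE 0.16, adjusted p = 5.13e-08). Blood-gated cells, at 153 and 165 CPM of Efnb2, came close to the telocyte-gated cells, and lymphatic-gated cells had 65.1 and 55.5 CPM. In the sorted library Efnb2 was at 169 CPM in telocyte-gated cells (95% Poisson interval 158 to 181) and 4.81 CPM in fibroblast-gated cells (3.68 to 6.18), a ratio of 35.2. The 10 genes that led the telocyte gate held 5 telocyte markers and 2 of the pericyte list, Abcc9 and Kcnj8; the pericyte-gated cells themselves had 35.7 and 28.0 CPM of Efnb2.

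Among the A-type ephrins, held to the membrane by a lipid anchor, 2 were lower in telocytes. Efna5 had 8.98 and 3.81 CPM in telocytes, against 65.0 and 64.2 CPM in PDGFRAlo cells and 2.69 to 3.62 CPM in endothelium (telocyte over PDGFRAlo -3.34, SE 0.45, adjusted p = 0.00130; -4.10 without telocyte library 1), and it was specific to PDGFRAlo cells in all 8 fits without 1 library. In whole mesenchyme Efna5 had 5.51 and 13.4 CPM in telocyte-gated cells, against 109.7 and 113 CPM in fibroblast-gated cells (-3.53, SE 0.24, adjusted p = 3.12e-12). Efna1, an ephrin induced by inflammatory signals in endothelium, was the endothelial one: 4.92 and 3.15 CPM in telocytes and 80.0 and 20.8 CPM in PDGFRAlo cells, against 543 and 439 CPM in blood endothelium and 183 and 337 CPM in lymphatic endothelium (stroma over endothelium -4.65, SE 0.48, adjusted p = 5.69e-05). Per kilobase it was the highest ephrin in both endothelia, at 268 and 142 CPM per kb. Its lower level in telocytes than in PDGFRAlo cells (-3.64, SE 0.66, adjusted p = 0.00573) was lost without telocyte library 2 (adjusted p = 0.0569) and was -2.35 and -4.30 without PDGFRAlo library 1 or 2. Efna3, a low-level A-type ephrin, had 7.05 and 2.26 CPM in blood endothelium, against 0.270 and 0.134 CPM in lymphatic endothelium (4.58, SE 1.15, adjusted p = 0.0208), a call lost without blood endothelial library 1 (3.53, adjusted p = 0.102) and without lymphatic library 1 or 2 (adjusted p = 0.0832 and 0.151), with a value of 5.19 without blood endothelial library 2. Fibroblast-gated cells held 2.38 and 2.94 CPM of Efna1, so the level in the PDGFRAlo sort was not found in them; the blood marker sum moved with it, and its part was not tested.

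Eph receptors were for the most part low, and those with high levels were shared by both stromal populations. Ephb3 had 84.5 and 80.0 CPM in telocytes and 73.1 and 119.6 CPM in PDGFRAlo cells, against 0.0709 to 0.628 CPM in the endothelial libraries (stroma over endothelium 8.20, SE 0.61, adjusted p = 1.04e-05; 9.22 without blood endothelial library 2). Ephb4, the receptor of ephrin-B2, was in every library, between 31.9 and 99.8 CPM, and passed in none of the bulk comparisons (adjusted p = 0.680, 0.145 and 0.836). In single cells Ephb4 had 83.4 and 102 CPM in blood-gated cells, against 141 and 155 CPM in lymphatic-gated cells (-0.68, SE 0.19, adjusted p = 0.00798). Epha4, a receptor that takes both ephrin classes, was the Eph of blood endothelium, with 40.3 and 23.9 CPM, against 0.270 and 0.605 CPM in lymphatic endothelium (6.07, SE 0.70, adjusted p = 0.00141; 6.88 without lymphatic library 2). Blood-gated cells had 69.5 and 70.2 CPM of it and lymphatic-gated cells 0 and 1.85 CPM (6.17, SE 0.79, adjusted p = 5.03e-07).

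Epha7 and Ephb2 were PDGFRAlo genes of low level. Epha7 had no count in telocytes, against 17.4 and 14.0 CPM in PDGFRAlo cells, which is at least 157-fold lower in telocytes (3 counts put over the group; adjusted p = 0.000906). Ephb2 had 0 and 0.242 CPM in telocytes, against 7.27 and 11.6 CPM in PDGFRAlo cells (-6.15, SE 1.36, adjusted p = 0.0182). The Ephb2 call was lost without telocyte library 1 (-5.27, adjusted p = 0.0771) and without PDGFRAlo library 2 (adjusted p = 0.0635), and its value was -10.59 without telocyte library 2. In whole mesenchyme neither had a UMI in telocyte-gated cells, against 11.6 and 11.1 CPM of Epha7 and 14.9 and 17.6 CPM of Ephb2 in fibroblast-gated cells, at least 8.64-fold and 12.3-fold lower in telocyte-gated cells. DESeq2 did not call these single-cell differences (adjusted p = 0.542 and 0.281), against 0.000146 and 7.52e-06 in edgeR, where 6 other settings gave at most 0.000245 for Epha7 and 1.46e-05 for Ephb2. In the few enteric glia-gated cells (29 and 17 cells) Ephb2 stood at 197 and 158 CPM, which was not tested.

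Sema7a, a membrane-anchored semaphorin, had 0.285 and 0.121 CPM in telocytes, 5.55 and 1.48 CPM in PDGFRAlo cells, 51.8 and 50.4 CPM in blood endothelium and 11.1 and 15.9 CPM in lymphatic endothelium. Both stromal populations were below every endothelial library (stroma over endothelium -4.96, SE 0.49, adjusted p = 4.43e-05). Blood endothelium was called higher than lymphatic endothelium in bulk (1.92, SE 0.56, adjusted p = 0.0371), a call lost without blood endothelial library 1 or 2 (adjusted p = 0.0868 and 0.0899) and without lymphatic library 1 or 2 (0.171 and 0.122). In single cells blood-gated cells had 117 and 108 CPM and lymphatic-gated cells 171 and 104 CPM of Sema7a, which did not differ past the threshold (-0.28, SE 0.21, adjusted p = 0.368). Ephb1, a receptor of B-type ephrins, was also endothelial in bulk, with 0.143 and 0.121 CPM in telocytes and 3.30 and 0.878 CPM in PDGFRAlo cells, against 26.0 and 14.5 CPM in blood endothelium and 18.2 and 21.6 CPM in lymphatic endothelium (-5.24, SE 0.53, adjusted p = 4.75e-05). Blood-gated cells had 5.56 and 14.5 CPM of Ephb1, against a mean of 50.1 CPM over the 2 libraries in lymphatic-gated cells (-2.36, SE 0.51, adjusted p = 0.00131), while the endothelial bulk libraries overlapped (0.02, adjusted p = 0.972). Epha2, a receptor of A-type ephrins chosen after its values were seen, did not pass between the stromal sorts (-0.24, adjusted p = 0.881), and had 14.7 and 14.3 CPM in telocyte-gated cells, against 0.795 and 1.10 CPM in fibroblast-gated cells (3.89, SE 0.45, adjusted p = 5.40e-08).

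Over all members, the telocyte contrast in single cells also held more lower than higher calls. Of 50 members tested in whole mesenchyme, 8 were higher and 20 lower in telocyte-gated than in fibroblast-gated cells, against 9.92% and 15.3% of all 12572 genes. Of the members called in the bulk contrast, 2 were called higher and 13 lower in both assays, and none was called in opposite directions. No share over all genes is given beside this overlap, so it is not read as above background. Robo3 and Sema4f, also called in bulk, were not tested in single cells. The 8 that were lower in bulk and not called in single cells were Efna1, Efnb3, Ephb1, Robo4, Sema3a, Sema3g, Sema4d and Sema7a. Between blood-gated and lymphatic-gated cells 13 members were higher and 9 lower, against 14.5% and 10.5% of all genes. Efnb3 was lower in blood-gated cells, at 0 and 1.03 CPM against 46.5 and 22.2 CPM (-6.01, adjusted p = 1.84e-05). Its bulk value pointed the other way without passing (2.71, adjusted p = 0.0791), and the difference between the assays was not tested. In the sorted library 45 members had 20 UMIs or more over both gates. Of these, 7 were more than 2-fold higher and 17 more than 2-fold lower in telocyte-gated than in fibroblast-gated cells, against 13.3% and 13.0% of all genes with as many UMIs; this library was not tested.

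**Figure D4:**
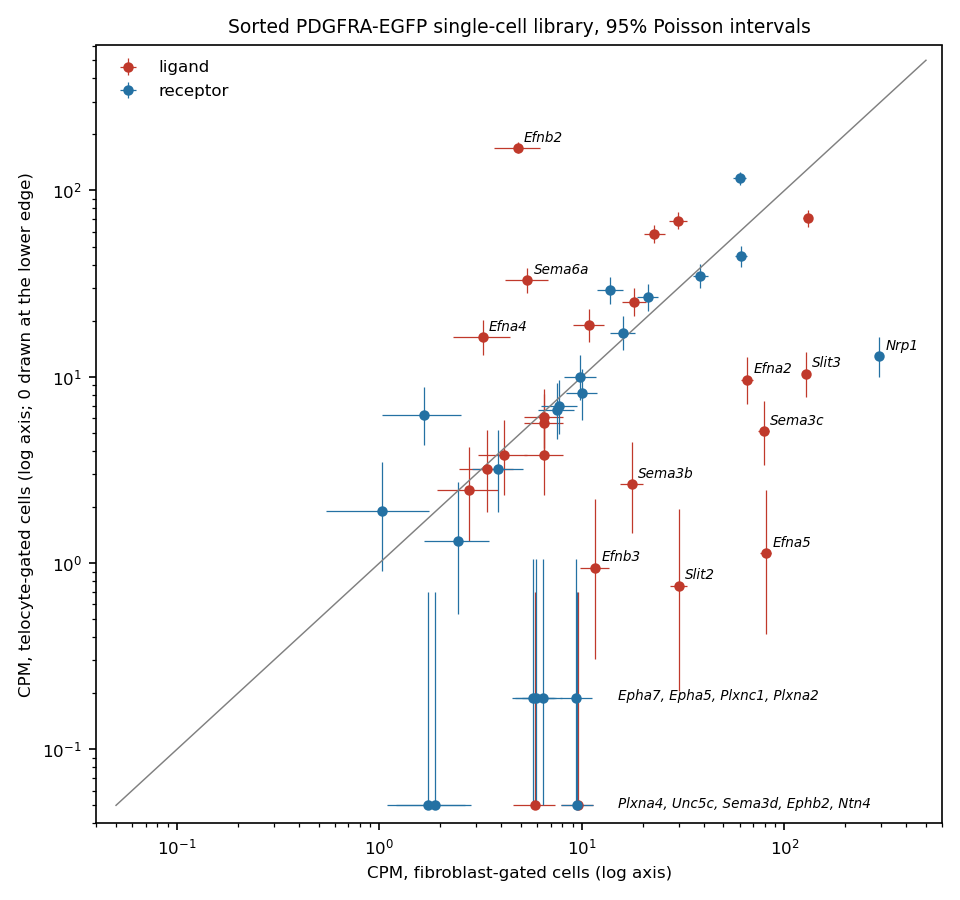
CPM of the 45 members with 20 UMIs or more in telocyte-gated cells (vertical) and fibroblast-gated cells (horizontal) of the sorted library, both axes logarithmic, with 95% Poisson intervals; points listed at 0 sit on the lower edge and the line marks equal levels. Efnb2 stands far above the line, and Nrp1, Slit3, Slit2, Sema3c and Efna5 far below it.

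Across the 12 gated classes of whole mesenchyme, most guidance members had their highest mean level in stromal or vessel classes. Each class was also tested against the mean of the other classes, taken over log2 levels and not over CPM. A call by this test need not be a level above the mean CPM of the other classes. Sema3g was called higher in fibroblast-gated cells at a mean of 0.655 CPM, against 249.9 CPM in blood-gated cells. Fibroblast-gated cells had 39 of 50 members called higher, against 45.9% of all genes, and smooth muscle-gated cells 35 (38.8% of all genes). Blood-gated cells had 28 (27.0%), telocyte-gated cells 25 (30.8%), lymphatic-gated cells 23 (22.9%) and pericyte-gated cells 20 (15.4%). Macrophage-gated cells had 11, or 22.0% of the members, near the 23.3% of all genes. In the other lymphoid and myeloid classes the share of the members was below that of all genes, given in brackets. These were innate lymphoid 8 (26.2%), dendritic 7 (30.2%), T cells 5 (28.5%), plasma cells 3 (33.2%) and B cells 2 (9.92%). By highest mean level, 13 members peaked in fibroblast-gated, 11 in blood-gated, 11 in lymphatic-gated, 6 in pericyte-gated and 3 in telocyte-gated cells (Efnb1, Efnb2 and Plxna1). Of all genes tested, 9.25% peaked in fibroblast-gated, 8.38% in blood-gated, 10.8% in lymphatic-gated, 7.92% in pericyte-gated and 6.88% in telocyte-gated cells, so the telocyte share of the members was near that of all genes. Enteric glia-gated cells, too few to test, had 394 and 686 CPM of Sema3b and 183 and 264 CPM of Sema6d, a pair of genes chosen after their values were seen.

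**Figure D5:**
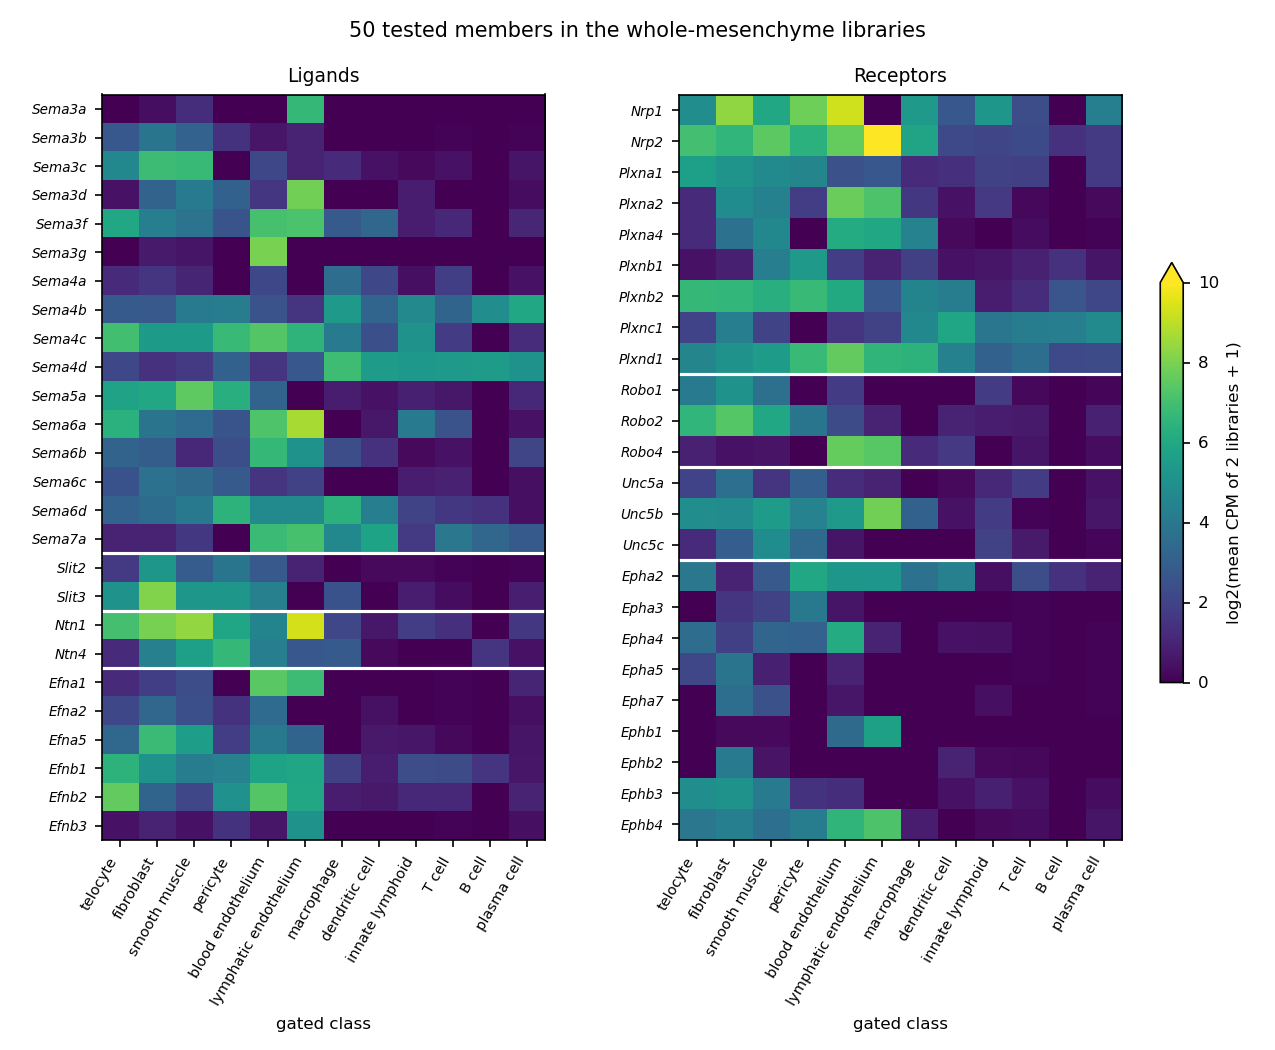
Mean level of the 50 tested members over the 2 whole-mesenchyme libraries in each of 12 gated classes, as log2(mean CPM + 1) on a colour scale, ligands on the left and receptors on the right. Nrp1 is bright in blood-gated and fibroblast-gated cells and dark in lymphatic-gated cells, where Nrp2, Ntn1, Sema3a and Sema3d are bright.

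Genes that act with the members were read from a list of 57 other pathway genes, of which 47 were tested. In telocytes against PDGFRAlo cells 1 was higher and 13 lower, blood over lymphatic endothelium 15 were higher and 5 lower, and stroma over endothelium 20 were higher and 11 lower. Over all genes tested the shares were 2.77% higher and 12.1% lower, 14.7% higher and 8.32% lower, and 28.8% higher and 31.7% lower, in the same order, so the 1 higher call in telocytes was near the background. Neo1, a netrin and RGM receptor of the DCC family, had 61.0 and 60.8 CPM in telocytes and 59.8 and 115 CPM in PDGFRAlo cells, against 12.4 and 9.51 CPM in blood endothelium and 5.54 and 5.85 CPM in lymphatic endothelium (stroma over endothelium 3.21, SE 0.28, adjusted p = 2.11e-05). Dag1, dystroglycan, which binds Slits in the extracellular matrix, had 603 and 628 CPM in telocytes and 403 and 594 CPM in PDGFRAlo cells, against 62.2 and 103 CPM in blood endothelium and 12.3 and 15.1 CPM in lymphatic endothelium (4.04, SE 0.30, adjusted p = 1.06e-05). Both calls were kept in every fit without 1 library. Chn2, an intracellular Rac regulator, was lower in telocytes, at 0.356 and 0.605 CPM, than in PDGFRAlo cells, at 6.80 and 9.33 CPM (-4.04, SE 0.48, adjusted p = 0.000776). The 8 members under the bulk low-count filter were Epha6, Epha8, Epha10, Ntn5, Sema3e, Sema4g, Slit1 and Unc5d, none above 1.12 CPM in any library, and Epha6 and Unc5d had no count at all.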

How the data were processed

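Bulk RNA was made into SMART-Seq v4 libraries from 5 to 10 ng RNA, per the labels' protocols. The bulk table holds raw read counts per gene as deposited by the authors, and the single-cell matrices hold UMI counts per gene and barcode as deposited by the authors. The submitters' processing notes name STAR, Seurat, mm10 and Cell Ranger 2.1.1 and 3.0.2; for the bulk counter, its annotation and its strandedness, each is not given in the sources used here.

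Members and lists were chosen with earlier results of these data known. Bulk counts were fitted over all 8 libraries with edgeR 4.0.16 (R 4.3.3; TMM scaling, filterByExpr, quasi-likelihood test, Benjamini-Hochberg adjusted p under 0.05 over all 14893 genes). Gene names that had turned into dates were left out. Barcodes were kept at 500 genes or more and below 10% mitochondrial UMIs, and cells were gated by at least 3 detected markers with a lead of 1, after removal of doublets by a scrublet score limit of 0.25 set after the scores were seen. UMIs were summed per library and class and tested with edgeR, with library as a block. Members named were, in each bulk comparison, up to 12 called per direction with the smallest p and a mean of 5 CPM or more in the higher group; members specific to a population; the highest per kilobase of each family in each population; and up to 4 called members with the highest CPM per gated class. Pathway genes were taken from the 3 with the smallest p per direction and comparison. Members outside this rule are given as chosen after their values were seen, or as under the low-count filter. Sema4d, Sema6a, Epha2, Sema6d and Sema3b are also given as chosen so, though the rule covers them. The first 4 were among the called members with the highest CPM of a gated class, and Sema3b was specific to PDGFRAlo cells. CPM per kb used exon lengths of GENCODE M21.

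On simulated counts for telocyte against PDGFRAlo cells, over 14893 genes, 21 of 100 genes changed 4-fold and 2 of 100 changed 2-fold were called. For telocyte-gated against fibroblast-gated cells, over 12572 genes, 87 of 100 and 66 of 100 were called. Unchanged genes were called as well, 1 in the bulk simulation and 17 in the single-cell simulation. Both simulations gave all genes the same spread and gave unchanged genes the same mean in every population. The data differ in both, so these rates may not hold for them. Alternatives were DESeq2, RLE scaling, no filter, a replicate block, a fold threshold, left-out libraries and other gates.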

Additional observations from a re-analysis of the deposited data

How the results depend on the processing

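Of 2313 values recomputed for single members under alternatives, 2174 kept direction and side of the threshold, 104 lost a call, 35 gained one and 0 reversed. Tested against a fold of 2 (glmTreat), 1 member was higher in telocytes than in PDGFRAlo cells and 12 were higher in blood than in lymphatic endothelium; this test was not run for the population-specific counts. Over fits that left out 1 library, telocyte against PDGFRAlo cells gave 1 to 2 higher and 13 to 21 lower members, blood against lymphatic endothelium 9 to 22 higher and 3 to 5 lower, and stroma against endothelium 23 to 25 higher and 13 to 15 lower. Population-specific members numbered 0 to 2 for telocytes, 6 to 10 for PDGFRAlo cells, 2 to 8 for blood endothelium and 0 to 3 for lymphatic endothelium. The cause was not tested; these fits hold fewer libraries. Replicate numbers are shared only as numbers: the correlation of same-numbered deviations ran from -0.1 to 0.19 over pairs of populations. With the replicate block, telocytes against PDGFRAlo cells gave 2 higher and 23 lower members, blood against lymphatic endothelium 23 higher and 4 lower, and stroma against endothelium 24 higher and 14 lower. A gate with a lead of 2 markers, added after seeing the data, left too few pericyte-gated cells for a value. With 2 libraries a group and 4 residual degrees of freedom, small bulk differences were not detectable.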
